A study of Mus musculus with 6 samples.

Results

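The 10 genes described here encode proteins of the cardiac Z-disc, or proteins that bind there or to the thin filament and respond to mechanical strain. They were chosen by name (Myoz1, Myoz2, Csrp3, Xirp1, Xirp2, Abra, Ankrd1, Ankrd2, Pdlim5 and Ldb3), with earlier results of these data known. All 10 were found among the 54532 genes of the deposited table. The data are RNA-seq profiles of hearts from mice 4 days old, 3 labelled Wtap-CKO and 3 labelled Wtapflox/flox (called Wtap-flox). WTAP is a subunit of the nuclear complex that writes N6-methyladenosine (m6A) on RNA, and CKO is the usual short form of conditional knockout, made by Cre from floxed alleles such as those the controls carry. The labels used here name no Cre driver, deleted exons, strain or sex. The submitters call the 3 hearts of each group independent biological replicates.

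The Z-disc is the plate that borders each sarcomere, where thin filaments of opposite polarity are cross-linked by alpha-actinin and where titin is anchored. It also holds adaptor proteins with PDZ, LIM or ankyrin domains that link the contractile lattice to signalling by calcineurin and SRF. Several of these adaptors are known as genes that are switched on when cardiac muscle is stretched or overloaded.

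Between 15649028 and 18045599 reads per library were assigned to genes, and 1 read was worth 0.0564 to 0.0647 FPKM in a gene of 1 kb. FPKM divides the reads of a gene by its length and by a library size, so levels can be compared between genes. The size implied by the values lay below the assigned reads in each Wtap-CKO library and above them in each Wtap-flox library. It was 16148068 against 16485304 reads in Wtap-CKO 1 and 17431182 against 16589331 in Wtap-flox 1. Scaled to its geometric mean, it was close to a size factor from median ratios between libraries (0.968 and 0.973 in Wtap-CKO 1). Division by assigned reads would thus give lower values in Wtap-CKO and higher ones in Wtap-flox. On the first principal component of the tested genes, which held 52.6% of the variance, all Wtap-CKO libraries lay on one side and all Wtap-flox libraries on the other. Wtap-CKO 3 stood apart from Wtap-CKO 1 and 2 on the second component (20.4%). It also had the highest summed level of 8 leukocyte markers, 147 FPKM against 45.8 and 51.6 FPKM in Wtap-CKO 2 and 1 and 29.8 to 36.3 FPKM in Wtap-flox. Wtap itself stood at 9.32, 7.75 and 9.46 FPKM in Wtap-CKO and at 7.77, 8.74 and 10.9 FPKM in Wtap-flox (log2 fold change -0.04, adjusted p = 0.893, limma). That value counts the whole gene, so it does not check the labels, and every direction below rests on them.

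Summed levels of 10 cardiomyocyte markers, which define the labelled tissue, overlapped between the groups, at 18213 to 22090 FPKM in Wtap-CKO and 17476 to 21081 FPKM in Wtap-flox, and 1 of the 10 was lower and none higher by the test used below. In such bulk samples, fewer cells of a type and less RNA per cell cannot be told apart. The summed levels of 7 fibroblast markers (369.5 to 536.5 against 469 to 526 FPKM), 6 endothelial markers (203 to 221 against 212 to 240 FPKM), 7 smooth muscle markers (744 to 973 against 545 to 785 FPKM) and 9 atrial markers (75.7 to 124 against 94.3 to 218 FPKM) also overlapped, with Wtap-CKO given first, as did those of 5 ventricular markers (3186 to 5582 against 4285 to 4914 FPKM). The summed levels of 8 leukocyte markers did not overlap, at 45.8 to 147 FPKM in Wtap-CKO and 29.8 to 36.3 FPKM in Wtap-flox. Single markers did pass the test in both directions, as did 9.91% of all tested genes upward and 6.69% downward. Among ventricular markers 2 were lower and 0 higher in Wtap-CKO, among atrial markers 2 were lower and 1 higher, and among fibroblast markers 2 were lower and 0 higher. Endothelial markers had 1 lower and 1 higher, smooth muscle markers 0 lower and 1 higher, and leukocyte markers 0 lower and 1 higher. The part of cell makeup in the results below was not tested.

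Most of the members were higher in the hearts labelled Wtap-CKO. Of the 9 members with a mean of at least 1 FPKM, 8 rose and 0 fell (limma on log2(FPKM + 1), adjusted p under 0.05 over 12568 genes), where 16.6% of all tested genes changed, 9.91% upward and 6.69% downward. In these 8 members each Wtap-CKO value lay above each Wtap-flox value, which held for 19.8% of tested genes (37.1% with either group above). The median log2 fold change of the 9 members was 1.11, against 0.00292 over all tested genes. Since the members were chosen with earlier results of these samples known, their shared direction is not independent evidence. Ldb3 did not pass, and Ankrd2 was too low to be tested. The count was 8 without Wtap-CKO 3 and 7 without Wtap-CKO 2 or any one of the Wtap-flox libraries, Xirp1 being the call that was lost. Higher genes made up 59.7% of those that changed on the deposited scale. That share was 45.4% with upper-quartile scaling and 33.3% with TPM scaling, the last of which shifted the median gene by -0.14, and the members counted as higher were 8 and 7 under these scalings.

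**Figure D1:**
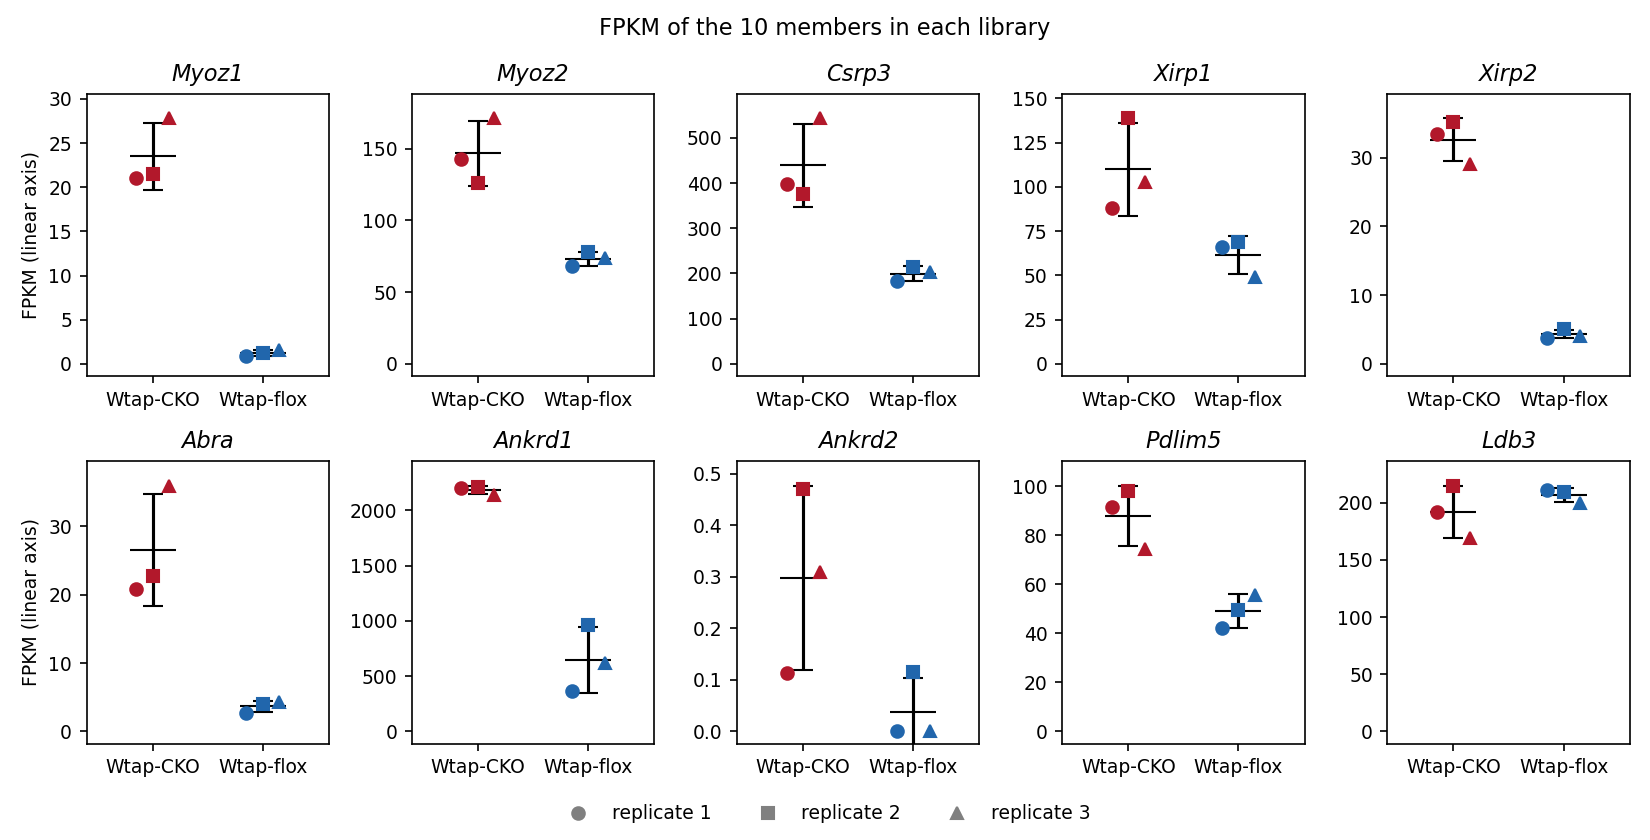
FPKM of each member in each library, on linear axes with a separate scale per gene. Points are hearts, with the replicate number as the symbol, and horizontal lines and bars give the mean and SD of 3 hearts. In 8 panels all Wtap-CKO points lie above all Wtap-flox points, and in those of Ankrd2 and Ldb3 they overlap.

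The calsarcins Myoz1 and Myoz2 bind alpha-actinin, filamin and telethonin and tether calcineurin to the Z-disc. Myoz1 (ENSMUSG00000068697, chromosome 14, 20649107 to 20656540, minus strand) is known from fast skeletal muscle. It had 21.1, 21.5 and 27.8 FPKM in Wtap-CKO, against 0.879, 1.20 and 1.55 FPKM in Wtap-flox. The lowest Wtap-CKO heart was far above the highest Wtap-flox heart. The ratio of the group means was 19.4, from 23.5 ± 3.77 FPKM in Wtap-CKO and 1.21 ± 0.336 FPKM in Wtap-flox (SD, n = 3 each). The log2 fold change of FPKM + 1 was 3.47 (95% interval 3.11 to 3.83, adjusted p = 2.95e-05, limma), ranking 3 among 12568 genes. Since the Wtap-flox level is close to the pseudocount of 1, that scale understates the change, and limma-voom on the reads gave 4.29. Those levels rest on 629 to 928 reads per library in Wtap-CKO and 29 to 52 in Wtap-flox. By mean FPKM, Myoz1 ranked 1927 among protein coding genes in Wtap-CKO and 10812 in Wtap-flox.

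Because Myoz1 and the low member Ankrd2 are best known from skeletal muscle, markers of skeletal fibres were read beside them. Of 21 markers, 17 stayed below 1 FPKM in every library, and Myh4, Myod1, Myf6 and Pax7 were at 0 in all 6. Their summed level was 9.11 to 11.6 FPKM in Wtap-CKO and 11.8 to 16.9 FPKM in Wtap-flox. Most of that gap lay in Myl1, a fast fibre light chain gene, which averaged 2.23 FPKM in Wtap-CKO and 5.08 FPKM in Wtap-flox (adjusted p = 0.00667, limma). Mybpc2, the other tested marker, averaged 5.06 FPKM in Wtap-CKO and 5.74 FPKM in Wtap-flox and did not pass. Untested markers lay in both directions, with Tnnt3 at 0.833 FPKM in Wtap-CKO and 0.393 FPKM in Wtap-flox, and Tnni2 at 0.454 FPKM in Wtap-CKO and 0.972 FPKM in Wtap-flox. The part of skeletal fibres in the Myoz1 level was not tested.

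Myoz2 (ENSMUSG00000028116, chromosome 3, 123006206 to 123035015, minus strand) is the calsarcin of heart and slow muscle. Its values were 143, 126 and 171 FPKM in Wtap-CKO and 68.2, 77.9 and 73.5 FPKM in Wtap-flox, with no overlap. The means were 147 ± 22.9 FPKM in Wtap-CKO and 73.2 ± 4.85 FPKM in Wtap-flox (SD, n = 3 each), a log2 fold change of 0.98 (95% interval 0.63 to 1.34, adjusted p = 0.00444, limma). The 60 bases before its RefSeq start (GRCm38.p6, chr3:123034988-123035047, minus strand) are shown because they hold a match to the MEF2 site, in capitals, a motif bound by a family of muscle transcription factors.
Myoz2: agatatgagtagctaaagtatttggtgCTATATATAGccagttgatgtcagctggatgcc
The match reads the same on both strands and starts 33 bases before the RefSeq start.

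The balance of the calsarcins shifted towards Myoz1 in each Wtap-CKO heart. Myoz1 stood at 14.8%, 17.1% and 16.2% of the Myoz2 level in Wtap-CKO, against 1.29%, 1.54% and 2.11% in Wtap-flox. The log2 ratio was -2.64 ± 0.107 in Wtap-CKO and -5.96 ± 0.360 in Wtap-flox (SD, n = 3 each), a 9.93-fold difference. The exact two-sided permutation test gave p = 0.1, adjusted p = 0.1 over 2 ratios, the smallest that 3 against 3 can give. Such a ratio within a library does not depend on library scaling.

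**Figure D2:**
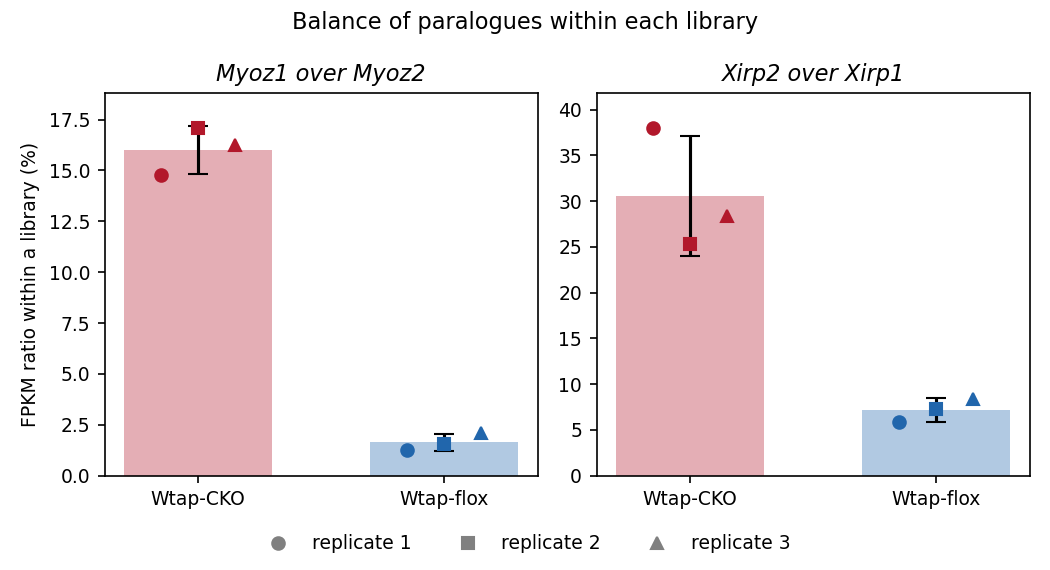
Ratio of paralogue levels within each library, in percent of FPKM. Points are hearts, bars are group means and error bars are SD of 3 hearts. The Myoz1 level was 14.8% to 17.1% of Myoz2 in Wtap-CKO and 1.29% to 2.11% in Wtap-flox, and Xirp2 was 25.4% to 37.96% of Xirp1 in Wtap-CKO and 5.82% to 8.40% in Wtap-flox.

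Xirp1 and Xirp2 encode the Xin repeat proteins, which bind and bundle actin at the intercalated disc and the Z-disc. Xirp2 (ENSMUSG00000027022, chromosome 2, 67446002 to 67526614, plus strand) had 33.5, 35.2 and 29.1 FPKM in Wtap-CKO and 3.84, 5.01 and 4.12 FPKM in Wtap-flox. The groups were far apart, at 32.6 ± 3.16 FPKM in Wtap-CKO and 4.32 ± 0.612 FPKM in Wtap-flox (SD, n = 3 each). On the log2 scale it rose by 2.66 (95% interval 2.36 to 2.96, adjusted p = 4.4e-05, limma). Xirp2 overlaps the antisense gene Gm13601, which had at most 3 reads in any library. Xirp2 is known as a target of MEF2A, and the 100 bases before its start (GRCm38.p6, chr2:67445902-67446001, plus strand) are shown with the match to the MEF2 site in capitals.
Xirp2: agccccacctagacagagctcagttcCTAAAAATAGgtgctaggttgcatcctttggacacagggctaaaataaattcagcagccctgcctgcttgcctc
This match lies 74 to 65 bases before the start, and it is a match to letters, not a measured site.

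Xirp1 (ENSMUSG00000079243, chromosome 9, 120013755 to 120023598, minus strand) changed less. It stood at 88.2, 139 and 103 FPKM in Wtap-CKO and at 65.9, 69.2 and 49.1 FPKM in Wtap-flox, without overlap but with a wide spread in both groups. The log2 fold change was 0.82 (95% interval 0.35 to 1.28, adjusted p = 0.0279, limma), from 109.9 ± 26.1 FPKM in Wtap-CKO and 61.4 ± 10.8 FPKM in Wtap-flox (SD, n = 3 each). This was the least stable call: adjusted p was 0.0571 without Wtap-CKO 2, and 0.0564, 0.0537 and 0.0927 without Wtap-flox 1, 2 and 3. It was 0.0595 with TPM scaling and 0.139 with quantile normalization. Xirp1 lies inside the annotated span of the macrophage receptor gene Cx3cr1 on the same strand, which had 2.34 to 3.06 FPKM in Wtap-CKO and 2.05 to 2.70 FPKM in Wtap-flox.

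Relative to Xirp1, the Xirp2 level was 37.96%, 25.4% and 28.4% in Wtap-CKO and 5.82%, 7.24% and 8.40% in Wtap-flox. The log2 ratio was -1.73 ± 0.301 in Wtap-CKO and -3.82 ± 0.266 in Wtap-flox (SD, n = 3 each), a 4.26-fold difference (exact two-sided permutation test, p = 0.1, adjusted p = 0.1 over 2 ratios).

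Abra, also called STARS, encodes an actin-binding protein of the sarcomere that lets the MRTF cofactors of SRF enter the nucleus. Abra (ENSMUSG00000042895, chromosome 15, 41864076 to 41869720, minus strand) had 20.9, 22.7 and 36.0 FPKM in Wtap-CKO and 2.75, 4.01 and 4.24 FPKM in Wtap-flox. No values overlapped, and Wtap-CKO 3 was the highest. The means were 26.5 ± 8.23 FPKM in Wtap-CKO and 3.67 ± 0.802 FPKM in Wtap-flox (SD, n = 3 each), with a log2 fold change of 2.54 (95% interval 2.04 to 3.03, adjusted p = 0.000599, limma). Without Wtap-CKO 3 it was 2.30 (adjusted p = 0.000573).

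Csrp3 encodes muscle LIM protein, an adaptor that binds alpha-actinin and telethonin. Csrp3 (ENSMUSG00000030470, chromosome 7, 48830398 to 48848033, minus strand) had 397, 376 and 544 FPKM in Wtap-CKO and 183, 213 and 203 FPKM in Wtap-flox. Again Wtap-CKO 3 was highest and the groups did not overlap. The log2 fold change was 1.11 (95% interval 0.69 to 1.54, adjusted p = 0.00519, limma), from 439 ± 91.4 FPKM in Wtap-CKO and 199.9 ± 15.7 FPKM in Wtap-flox (SD, n = 3 each). It was 0.95 without Wtap-CKO 3.

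Ankrd1 and Ankrd2 encode ankyrin repeat proteins that bind the spring region of titin and can move to the nucleus. Ankrd1 (ENSMUSG00000024803, chromosome 19, 36111965 to 36119844, minus strand), known as CARP, was the most abundant member in every library. Its level was 2204, 2213 and 2143 FPKM in Wtap-CKO and 364, 962 and 616 FPKM in Wtap-flox. The Wtap-CKO hearts were nearly alike (coefficient of variation 1.75%), whereas the Wtap-flox hearts differed up to 2.65-fold (46.4%). By mean FPKM, Ankrd1 ranked 13 among protein coding genes in Wtap-CKO and 30 in Wtap-flox. The log2 fold change was 1.87 (95% interval 1.14 to 2.59, adjusted p = 0.0062, limma), from 2187 ± 38.2 FPKM in Wtap-CKO and 647 ± 300.4 FPKM in Wtap-flox (SD, n = 3 each). It was 1.51 without Wtap-flox 1 and 2.21 without Wtap-flox 2.

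The 240 bases before the RefSeq start of Ankrd1 (GRCm38.p6, chr19:36119845-36120084, minus strand) are shown because they hold CATTCC, the core of the M-CAT element bound by TEAD factors, at a pair of places. It lies on the opposite strand, so the capitals read GGAATG.
Ankrd1: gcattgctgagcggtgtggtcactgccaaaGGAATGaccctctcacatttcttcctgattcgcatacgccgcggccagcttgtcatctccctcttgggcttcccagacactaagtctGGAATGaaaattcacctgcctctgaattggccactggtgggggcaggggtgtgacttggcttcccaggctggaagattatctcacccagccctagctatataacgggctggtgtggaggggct
The first match starts 210 bases before the start. Of the 4 motifs searched on both strands in 250 bases before each start, CATTCC occurred in 12.6% of 32851 RefSeq promoters, the MEF2 site in 2.92%, the CArG box bound by SRF in 1.47% and TATAAA in 12.4%. No match to one overlapped a match to another in the promoters of the members.

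Ankrd2 (ENSMUSG00000025172, chromosome 19, 42036038 to 42045110, plus strand), the form of slow skeletal muscle, was close to undetected. It had 0.113, 0.471 and 0.309 FPKM in Wtap-CKO, from 2, 8 and 6 reads, and 0, 0.114 and 0 FPKM in Wtap-flox, from 0, 2 and 0 reads. The values touch, since Wtap-CKO 1 and Wtap-flox 2 had 2 reads each. Over all libraries there were 16 reads in Wtap-CKO and 2 in Wtap-flox, a ratio of 8.30 with an exact 95% counting interval of 1.95 to 74.4 that covers counting error alone. Without the filter on low genes, limma gave adjusted p = 0.21 and limma-voom on reads gave adjusted p = 0.0334, so its difference is not settled at this depth.

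Pdlim5 and Ldb3 encode PDZ and LIM domain proteins that dock on alpha-actinin. Pdlim5, also called ENH (ENSMUSG00000028273, chromosome 3, 142239590 to 142395696, minus strand), had 91.7, 98.1 and 74.4 FPKM in Wtap-CKO and 42.1, 49.4 and 55.9 FPKM in Wtap-flox. Its groups did not overlap, at 88.1 ± 12.3 FPKM in Wtap-CKO and 49.2 ± 6.87 FPKM in Wtap-flox (SD, n = 3 each). It rose by 0.83 on the log2 scale (95% interval 0.46 to 1.20, adjusted p = 0.011, limma). Both genes make short and long splice forms, which a gene-level value does not separate.

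Ldb3, also called Cypher or ZASP (ENSMUSG00000021798, chromosome 14, 34526603 to 34588682, minus strand), was the tested member that did not pass. Its values were 192, 215 and 169 FPKM in Wtap-CKO and 211, 209.6 and 199.3 FPKM in Wtap-flox. The Wtap-CKO hearts spanned the Wtap-flox hearts on both sides. Its fitted difference was -0.11 on the log2 scale, bounded by -0.46 and 0.23 (95%, adjusted p = 0.656, limma), and the upper bound lay below the lower bound of each of the 8 members that rose. The 60 bases before its first RefSeq start (GRCm38.p6, chr14:34588682-34588741, minus strand) are shown because they hold a match to the CArG box, in capitals.
Ldb3: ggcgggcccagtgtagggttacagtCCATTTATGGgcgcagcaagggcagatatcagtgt
RefSeq promoters were matched for 7 of the 10 members, Myoz1, Xirp1 and Abra being the others. Those of Csrp3 held none of the motifs searched, and the only match for Pdlim5 and for Ankrd2 was TATAAA. The part of these motifs in the changes was not tested.

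**Figure D3:**
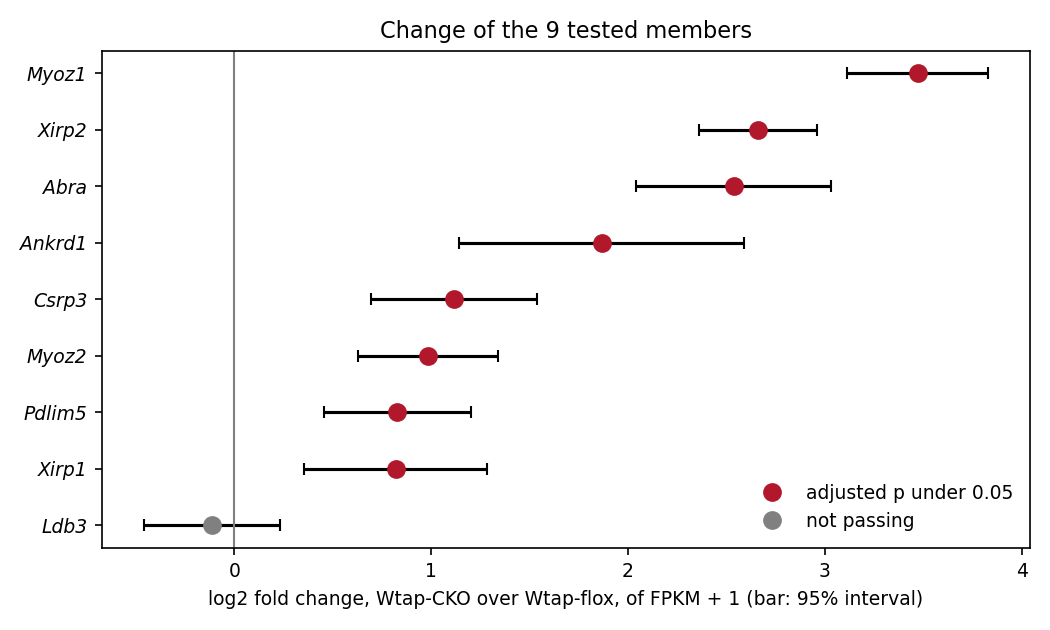
Log2 fold change of FPKM + 1, Wtap-CKO over Wtap-flox, of the 9 tested members, ordered by size, with 95% intervals from limma. The intervals of 8 members lie above 0, led by Myoz1 at 3.47, and that of Ldb3 spans 0.

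In size, the changes fell on a wide scale. The intervals of Myoz1 (3.11 to 3.83) and of Csrp3, Myoz2, Pdlim5 and Xirp1 (all below 1.54) did not overlap. Those of Xirp2 and Abra lay between them, and that of Ankrd1 (1.14 to 2.59) overlapped those of Xirp2, Abra, Csrp3, Myoz2, Pdlim5 and Xirp1. The order of levels hardly differed between the groups: in Wtap-CKO it ran Ankrd1, Csrp3, Ldb3, Myoz2, Xirp1, Pdlim5, Xirp2, Abra, Myoz1 and Ankrd2, and in Wtap-flox Ldb3 stood before Csrp3. The values of Ankrd1 lay above those of all others in both groups. Neighbours whose values overlapped in Wtap-CKO were Ldb3 with Myoz2, Myoz2 with Xirp1, Xirp1 with Pdlim5, Xirp2 with Abra, and Abra with Myoz1. In Wtap-flox they were Ldb3 with Csrp3, Myoz2 with Xirp1, Xirp1 with Pdlim5, and Xirp2 with Abra.

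Within the groups the members did not move as a block. Wtap-CKO 3, the library that stood apart, was the highest of its group for Myoz1, Myoz2, Csrp3 and Abra and the lowest for Xirp2, Ankrd1, Pdlim5 and Ldb3. Wtap-CKO 2 was the highest for the other 5 tested members. Among the Wtap-flox hearts, Wtap-flox 1 was the lowest for 7 of the 9 tested members, by -0.72 for Ankrd1 and -0.30 for Abra on the log2 scale relative to the group mean. The part of the leukocyte markers in the higher values of Wtap-CKO 3 was not tested.

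**Figure D4:**
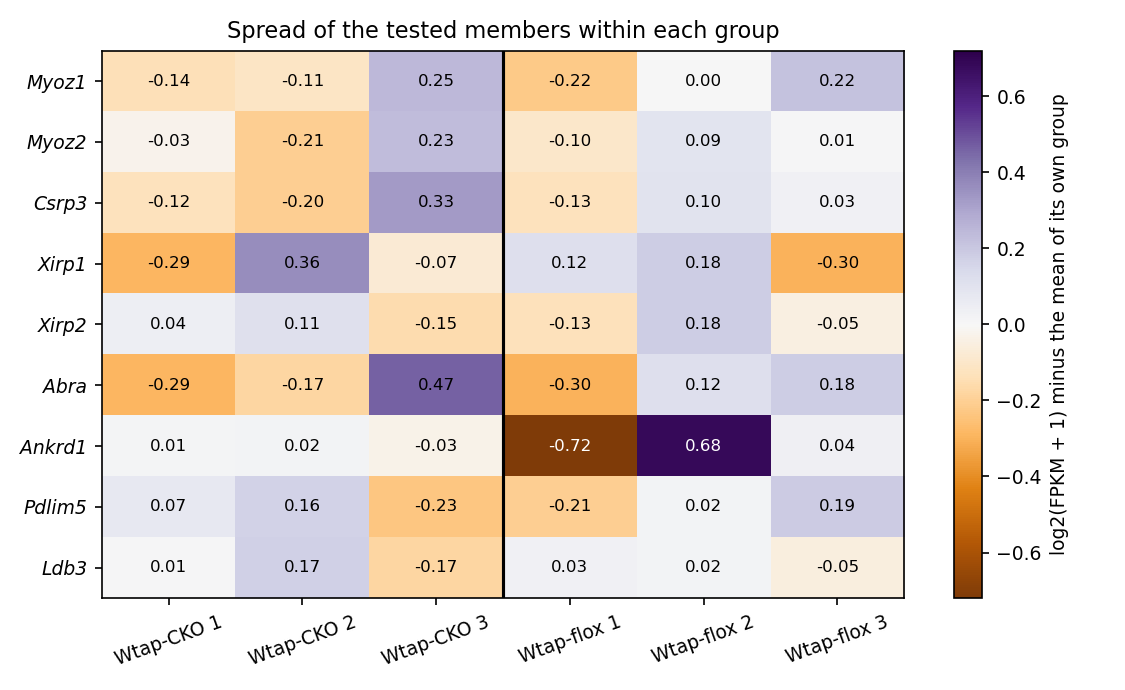
Deviation of each tested member from the mean of its own group on the log2(FPKM + 1) scale, with one column per library, Wtap-CKO left and Wtap-flox right. Wtap-CKO 3 is high for Myoz1, Myoz2, Csrp3 and Abra and low for Xirp2, Pdlim5 and Ldb3, and Ankrd1 varies most among the Wtap-flox hearts.

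The nearest profiles were sought among 6972 protein coding genes outside the members, all averaging 5 FPKM or more, by the root mean square difference between deviations from each gene's own mean on the log2 scale over the 6 libraries. The profile closest to Xirp2 was that of skeletal alpha-actin Acta1 (difference 0.24), and Acta1 (0.34) and Ctgf (0.36) were among the 3 profiles closest to Abra. Ankrd1 was closest to the lactate transporter gene Slc16a3 (0.18) and beta-tropomyosin Tpm2 (0.18). Xirp1 was closest to Zfp568 (0.11) and the Z-disc filamin Flnc (0.11), and Csrp3 to the small heat shock gene Hspb2 (0.06). The profile nearest to Myoz1 was that of Tent5b, at 0.47. Such a difference tends to be larger for genes with large changes, so it does not show that the pattern of Myoz1 is unusual.

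Other genes of the Z-disc and I-band moved in both directions. Of 28 listed, 26 were tested, 6 rose, 3 fell and 17 did not pass. To set beside this list and those below, 9.91% of all tested genes rose and 6.69% fell. The median log2 fold change of the 26 was 0.08, and its sign turned under TPM, upper-quartile and quantile scaling. Smpx, for a small strain-linked muscle protein, rose by 1.05 on the log2 scale (215 ± 12.6 FPKM in Wtap-CKO and 104 ± 16.7 FPKM in Wtap-flox, SD, n = 3 each, adjusted p = 0.00409, limma). Synpo2l, for an actin-bundling Z-disc protein, rose by 0.91. Nebl, for the thin filament anchor nebulette, fell by 0.75, and Cmya5, for myospryn, fell by 0.69. Rises numbered 3 without Wtap-flox 1, 1 without Wtap-flox 3 and 2 with quantile normalization, and falls numbered 1 without Wtap-CKO 1 or Wtap-flox 1. Without the filter on low genes there were 3 rises and 0 falls. Synpo2l missed the threshold without Wtap-flox 3 and with quantile normalization (adjusted p = 0.0702, limma), and Cmya5 without Wtap-CKO 1 or Wtap-flox 1. Synpo2l, Nebl and Cmya5 also missed it without that filter (adjusted p = 0.0529, 0.0512 and 0.0503, limma).

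Among 12 near relatives of the members, 11 were tested, 5 rose and 2 fell (median 0.46). Csrp1, a LIM relative of Csrp3 best known from smooth muscle, rose to 295 ± 12.7 FPKM in Wtap-CKO, against 105 ± 23.3 FPKM in Wtap-flox (SD, n = 3 each, a ratio of 2.80, adjusted p = 0.00162, limma). The LIM-only gene Fhl1, whose product binds titin, rose by 1.52, while its sister gene Fhl2 fell by 0.74, with 365 FPKM in Wtap-CKO and 613 FPKM in Wtap-flox. Lmcd1 rose by 0.76. Of the other PDZ and LIM genes, named after their values were seen, Pdlim3 rose by 0.54 and Pdlim7 by 0.46, and Pdlim4 fell by 0.52. Pdlim3 missed the threshold without Wtap-CKO 1, Wtap-flox 1 or Wtap-flox 2, Pdlim4 without Wtap-CKO 1, Wtap-flox 2 or Wtap-flox 3, and Pdlim7 without any one of the 6 libraries. With TPM scaling, Pdlim3 (adjusted p = 0.051, limma) and Pdlim7 (adjusted p = 0.118) missed it too. Pdlim7 missed it under 12 of 15 alternatives, upper-quartile and quantile scaling among them. Rises numbered 3 without Wtap-CKO 1, Wtap-flox 1 or Wtap-flox 2 and with TPM scaling, and 2 without the filter on low genes. None of the 2 falls passed without Wtap-CKO 1, Wtap-flox 2 or Wtap-flox 3. Fhl2 overlaps the pseudogene Gm8210 on the opposite strand, which had 1.15 to 31.5 FPKM in Wtap-CKO and 1.66 to 3.26 FPKM in Wtap-flox, and the strandedness of the counts is not given.

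Of 24 genes listed for the pathway that Abra feeds (SRF, its cofactors, Abra-binding Ablim proteins and known SRF targets), 23 were tested, 6 rose and 0 fell (median 0.34). Acta1 rose by 2.55 (421 ± 44.0 FPKM in Wtap-CKO and 73.7 ± 25.6 FPKM in Wtap-flox, SD, n = 3 each, adjusted p = 0.000732, limma), the immediate early gene Fos by 1.49 and calponin Cnn1 by 1.11. Cnn1 missed the threshold without Wtap-CKO 1 or Wtap-flox 3, and rises numbered 3 without Wtap-CKO 1 or Wtap-flox 3 and 2 without the filter on low genes. The median was 0.18 with TPM scaling and 0.19 with quantile normalization. Srf and its cofactors were among the 17 genes that did not pass. Named after their values were seen, Srf stood at -0.01, Mkl1 at 0.003 and Mkl2 at -0.29 on the log2 scale. The cofactor gene Myocd stood at 0.85 (26.1 FPKM in Wtap-CKO and 14.4 FPKM in Wtap-flox, adjusted p = 0.0704, limma).

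Of 11 titin partners, 10 were tested, 3 rose and 1 fell (median -0.17). That median was -0.04 without Wtap-CKO 3, -0.28 without Wtap-CKO 2 and -0.34 with TPM scaling. Besides Fhl1 and Fhl2 these were the small heat shock gene Cryab (0.72, adjusted p = 0.0236, limma) and the sarcomeric ubiquitin ligase Trim54 (0.66, adjusted p = 0.0319). Cryab missed the threshold without Wtap-CKO 1 or any one of the Wtap-flox libraries, and Trim54 without Wtap-CKO 1, Wtap-CKO 3, Wtap-flox 1 or Wtap-flox 3. Trim54 also missed it with TPM scaling (adjusted p = 0.0561, limma). Rises numbered 1 without Wtap-CKO 1, Wtap-flox 1 or Wtap-flox 3, and 4 genes fell under TPM, upper-quartile or quantile scaling. Fhl2 missed the threshold without Wtap-CKO 1, Wtap-flox 2 or Wtap-flox 3. Cryab overlaps its neighbour Hspb2 on the opposite strand, which had 75.3 to 122 FPKM in Wtap-CKO and 39.5 to 46.5 FPKM in Wtap-flox. Its part in the Cryab value was not tested.

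Calcineurin, which the calsarcins bind, was read through 12 genes, of which 1 rose and 0 fell (median -0.06), close to the 9.91% of all tested genes that rose. The median was -0.01 without Wtap-CKO 3, -0.13 without Wtap-CKO 2 and -0.19 with TPM scaling. Rcan1, a feedback inhibitor of calcineurin and a target of its signalling, rose by 0.86 (69.1 ± 2.26 FPKM in Wtap-CKO and 38.2 ± 8.33 FPKM in Wtap-flox, SD, n = 3 each, adjusted p = 0.0119, limma). With TPM scaling 2 of them fell. The catalytic and regulatory subunits did not pass.

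The stretch and load response list, which shares Acta1 and Rcan1 with the lists above, moved one way. Of 12 genes 11 were tested, 10 rose and 0 fell (median 1.79), and Myh7 did not pass. Hbegf, for a growth factor of the EGF family, had 21.9, 22.3 and 21.99 FPKM in Wtap-CKO and 7.30, 8.06 and 7.37 FPKM in Wtap-flox (log2 fold change 1.43, adjusted p = 0.000226, limma). The matricellular genes Ctgf and Cyr61 rose by 2.33 and 1.79. From 8 to 10 genes rose with each library left out in turn. This list was drawn up with earlier results of these samples known, so its direction is not independent evidence.

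**Figure D5:**
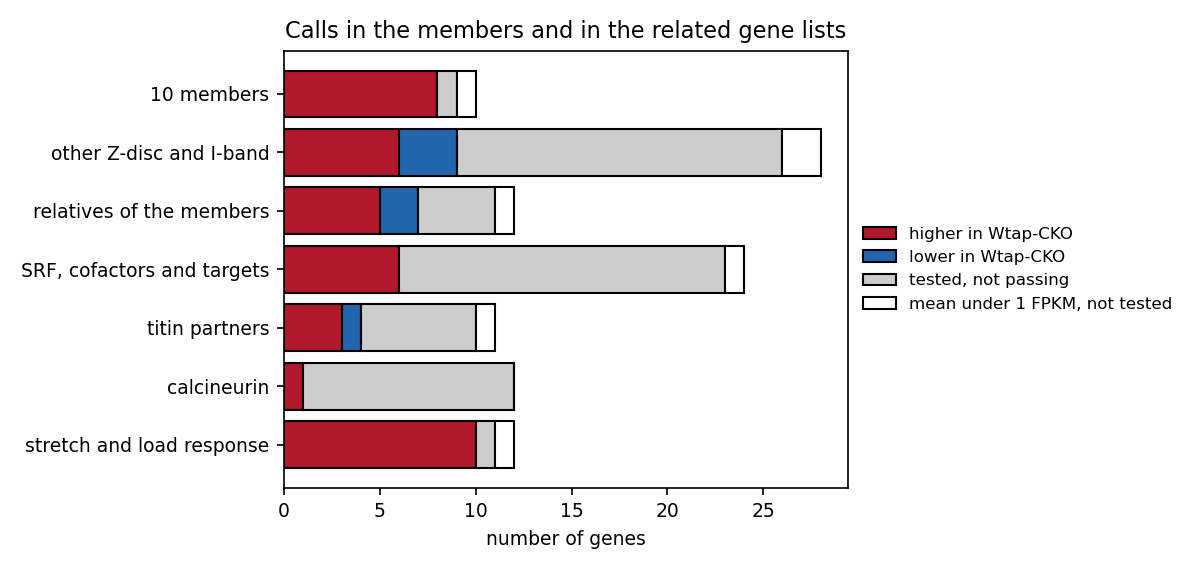
Number of genes in each list that were higher in Wtap-CKO, lower in Wtap-CKO, tested without passing, or below a mean of 1 FPKM and not tested. Among the members 8 were higher and 0 lower, and among the other Z-disc and I-band genes 6 were higher and 3 lower.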

How the data were processed

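Polyadenylated RNA of 6 hearts was sequenced as read pairs, per the labels' protocols. The submitters' processing notes name HISAT2 2.0.5, featureCounts 1.5.0-p3 and DESeq2 1.20.0. The authors deposited FPKM values, 1 column per library, and 0 per-sample columns were left unused. Multiplying FPKM by gene length gave whole steps in 100% of values (tolerance 0.01 of a step), so reads, or read pairs, were recovered. Limma 3.58.1 (R 4.3.3) tested the genes averaging 1 FPKM or more on log2(FPKM + 1), with variance trend and robust moderation, two-sided, adjusted by Benjamini-Hochberg over all 12568 tested genes. Fold changes are on that scale. The notes name GRCm39, but the start or end of all 10 members fell within 1000 bases of RefSeq on GRCm38.p6, and 0 of 10 did so with GENCODE on GRCm39, so coordinates are GRCm38. Single ratios used exact permutation tests (scipy 1.17.1). Members and gene lists were chosen with earlier results of these data known. Beyond the members and Wtap, the text names from each list genes among the 4 of lowest adjusted p and the top one of the other sign, and the nearest profiles. Alternatives covered pseudocount, filter, scaling, moderation, replicate block, limma-voom on reads and leaving out each library. Whether counting used strand is not given in the sources used here. One of the nearest profiles is not reported here.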

Additional observations from a re-analysis of the deposited data

How the results depend on the processing

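Myoz1, Myoz2, Csrp3, Xirp2, Abra, Ankrd1 and Pdlim5 stayed higher and past the threshold under all 15 alternatives, with log2 fold changes of 3.35 to 4.29, 0.77 to 1.09, 0.88 to 1.22, 2.51 to 2.92, 2.30 to 2.83, 1.51 to 2.21 and 0.65 to 0.94. Xirp1 kept its direction (0.62 to 0.96) and missed the threshold under 7 of 15, among them the fit without a filter (adjusted p = 0.0883, limma). Ldb3 passed under none (-0.31 to -0.025). Between 7 and 8 members were called with each library left out. Over all genes, 1206 were called without a filter, where more genes are tested, and 1195 to 2012 with 1 library left out, where samples are fewer: 1195 without Wtap-CKO 1 or Wtap-flox 2, 1251 without Wtap-flox 1 and 1277 without Wtap-flox 3. The sign for Wtap turned without Wtap-CKO 2 (0.05) and without Wtap-flox 3 (0.0863), within a range of -0.134 to 0.0863 with 1 library left out, and the cause was not tested. The calsarcin ratio differed by 3.15 to 3.51 and the Xin ratio by 1.92 to 2.21 on the log2 scale with 1 library left out. The Ankrd2 to Ankrd1 ratio was not tested, since Ankrd2 was at 0 in 2 libraries. Limma-voom without a filter was added after the data were seen. Replicate numbers are not stated to pair the hearts. Deviations of same-numbered libraries correlated across genes at -0.22, -0.08 and -0.08, and no Wtap-CKO library correlated best with the Wtap-flox library of its own number. Deviations within a group of 3 depend on each other, so these correlations cannot decide whether the hearts were paired. The replicate block called 1673 genes and 8 members. Under it Cnn1, Cryab, Trim54 and Pdlim7 missed the threshold (adjusted p = 0.0525, 0.054, 0.0505 and 0.0741, limma). Depth limits Ankrd2 most among the members, with at most 8 reads per library, and next Myoz1 in Wtap-flox, with 29 to 52.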

Other observations

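GGACT, the commonest form of the sequence in which m6A is written, was counted in the canonical GENCODE transcript of each member. It was absent from the transcripts of Myoz1, Myoz2 and Csrp3, all of which rose in Wtap-CKO, over 1289, 3426 and 1003 bases. In the other members that rose its density per kb was 0.521 in Abra, 0.929 in Pdlim5, 0.987 in Ankrd1, 1.09 in Xirp2 and 1.29 in Xirp1. It was 1.05 per kb in Ldb3, which did not pass, and 2.30 per kb in Ankrd2, which was too low to be tested. The median over 11131 tested protein coding genes was 1.05 per kb, with quartiles of 0.661 and 1.49 per kb. These are counts of letters in reference transcripts and not measured m6A, and their part in the changes was not tested.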
